A study of Homo sapiens with 8 samples.

Results

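The voltage-gated sodium and calcium channels of NGP cells, an established human neuroblastoma line, were taken as all genes whose annotated symbol names a sodium channel alpha or beta subunit (SCN) or a calcium channel alpha-1, alpha-2-delta, beta or gamma subunit (CACNA1, CACNA2D, CACNB, CACNG). The rule found 59 of 50599 probes, which belong to 38 of 21524 genes. These are 9 sodium alpha and 3 sodium beta subunits, and 10 alpha-1, 4 alpha-2-delta, 4 beta and 8 gamma subunits of calcium channels. Total RNA from 4 samples labelled as NGP cells overexpressing CFC1 and 4 samples labelled as mock-infected NGP cells was hybridised in a single colour, and the comparison asks how CFC1 alters transcript abundance. CFC1 cDNA or the mock construct was delivered by lentivirus, and puromycin selection followed in both groups. The labels name neither the promoter of the construct nor whether samples came from separate cultures, and p-values here reflect only how far arrays of a group differ, which may be technical.

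Voltage-gated sodium and calcium channels open when the membrane is depolarised. Sodium channels carry the rapid upstroke of the action potential, and calcium channels turn depolarisation into secretion, gene regulation and pacemaking. In each, a large pore-forming subunit (alpha or alpha-1) is accompanied by auxiliary subunits that set its trafficking and gating, and cells of the sympathoadrenal lineage, from which neuroblastoma arises, are excitable and use both kinds.

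Each value is a log2 difference from a baseline that is not stated, set for each probe, then averaged over the probes of a gene, so it gives differences between arrays and no level of expression. The base of the logarithm is not stated either, and base 2 was assumed. Differences are the mean of the arrays labelled CFC1 minus the mean of the mock arrays (n = 4 each), and a gene was called where limma's adjusted p over all genes was below 0.05. The number of arrays limits the precision. CFC1 itself, which the label gives as overexpressed, averaged -0.38 ± 0.335 in the arrays labelled CFC1 and 0.416 ± 0.503 in the mock arrays (SD, n = 4 each), a difference of -0.80 (adjusted p = 0.0398), so it was lower and not higher. That call was lost under 12 of 19 alternative settings (adjusted p from 0.0266 to 0.136 over all). Among these were the fits without mock replicate 1 (-0.78, adjusted p = 0.0848) or 2 (-0.57, adjusted p = 0.061) and without CFC1 replicate 2 (-0.69, adjusted p = 0.0994), 3 (-0.73, adjusted p = 0.0961) or 4 (-0.82, adjusted p = 0.0696). Where the probe lies relative to the transduced cDNA was not determined. The measurement goes against the label of these arrays, and every direction below rests on that label.

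Relative to mock, falls outnumbered rises among the channel genes. Of the 38, 19 fell, 4 rose and 15 did not pass. Over all genes tested 28.2% fell, 29.7% rose and 57.9% were called in either direction, against 50% lower, 10.5% higher and 60.5% called among the channel genes. The share called was thus near that of all genes, and its split between directions was not tested. The members' median difference was -0.31, beside -0.09 for all genes. Differences of at least 1 log2 unit (2-fold) were found for 14 called members lower and 3 higher, where 8.97% and 9.71% of all genes were that far lower and higher. In 23 members the groups did not overlap, the same number as were called, 4 of them higher and 19 lower. Over all genes 56.5% did not overlap, 29.1% higher and 27.3% lower. In these cultures, fewer cells of a kind and less RNA per cell cannot be told apart from these values.

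**Figure D1:**
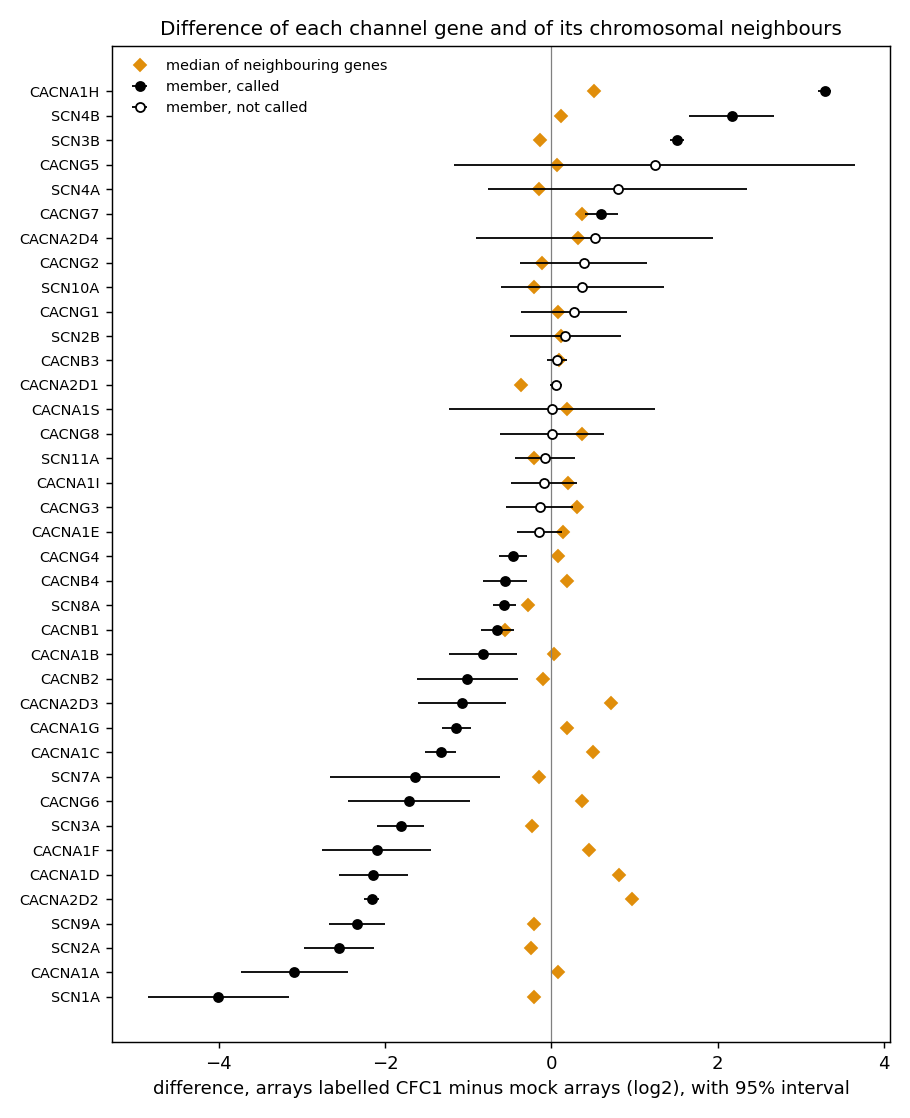
Difference of each of the 38 channel genes (circles, arrays labelled CFC1 minus mock arrays, log2, bars are 95% intervals, n = 4 arrays per group), filled where adjusted p is below 0.05 and open where it is not, from the highest at the top to the lowest at the bottom. Diamonds give the median difference of the other measured genes among the 10 on each side along the chromosome. CACNA1H stands highest at 3.29 and SCN1A lowest at -4.004, while the neighbour medians lie between -0.56 and 0.96.

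Among the pore-forming sodium channel subunits, 6 of 9 fell, none rose and 3 did not pass. The share called was 66.7%, beside 57.9% of all genes, of which 28.2% fell and 29.7% rose. Neither this family nor those below were tested against these shares. SCN1A, SCN2A, SCN3A, SCN7A and SCN9A, which lie together on chromosome 2, all fell, and SCN8A fell by less. The nociceptor channels SCN10A and SCN11A and the skeletal muscle channel SCN4A did not pass.

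SCN1A (Nav1.1, known for driving the firing of inhibitory neurons) had the largest fall of all 38 genes. Its values were -0.16, 0.00, 1.55 and 0.15 in the arrays labelled CFC1, against 4.49, 4.33, 4.45 and 4.29 in the mock arrays. The difference was -4.004 (SE 0.362, adjusted p = 3.31e-05), a 95% interval of -4.85 to -3.15. Every array labelled CFC1 lay below every mock array, and CFC1 replicate 3 stood above the other 3 of its group. That array's value came from a single probe of the pair: probe A_23_P28224 read -0.54, 0.01, 2.81 and -0.38 in the arrays labelled CFC1 and 4.18, 3.94, 4.15 and 3.83 in the mock arrays. The other probe, A_33_P3263533, read 0.21, 0.00, 0.29 and 0.68 in the arrays labelled CFC1 and 4.80, 4.73, 4.75 and 4.75 in the mock arrays. Both probes were called lower, at -3.55 and -4.46.

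SCN2A (Nav1.2, the channel of the axon initial segment of young excitatory neurons) stood at -0.11, 0.11, 0.00 and 0.73 in the arrays labelled CFC1, against 2.82, 2.71, 2.83 and 2.60 in the mock arrays. It differed by -2.56 (SE 0.18, adjusted p = 7.83e-06). The groups lay well apart, with CFC1 replicate 4 the highest of its group. SCN3A (Nav1.3, prominent in the embryonic nervous system) was at 0.30, 0.39, 0.00 and -0.14 in the arrays labelled CFC1 and 1.85, 1.94, 2.01 and 2.003 in the mock arrays, a difference of -1.81 (SE 0.121, adjusted p = 5.86e-06). The mock arrays of SCN3A lay closer together than those labelled CFC1, and the groups did not overlap.

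SCN9A (Nav1.7, the channel of sensory and sympathetic neurons that is known for its part in pain) stood at -0.46, -0.26, -0.27 and -0.29 in the arrays labelled CFC1, against 1.98, 2.38, 1.65 and 2.06 in the mock arrays. It fell by 2.34 on the log2 scale (SE 0.145, adjusted p = 3.75e-06), without overlap. Its pair of probes fell by unlike amounts. Probe A_24_P3005 differed by -3.45, with -0.40, 0.12, -0.27 and -0.34 in the arrays labelled CFC1 and 3.13, 3.30, 3.25 and 3.22 in the mock arrays, and probe A_24_P792124 by -1.23, with -0.51, -0.63, -0.28 and -0.25 and 0.82, 1.45, 0.04 and 0.91 in the same groups. The second of these probes was the more scattered over the mock arrays.

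SCN7A (NaX, a relative that senses the sodium concentration and is not gated by voltage like the others) stood at -0.32, -0.61, 0.19 and -0.20 in the arrays labelled CFC1, against 1.30, 0.34, 1.44 and 2.52 in the mock arrays. The difference was -1.64 (SE 0.434, adjusted p = 0.0127). The scatter came from probe A_23_P90944, which read -0.34, -0.71, 0.74 and -0.33 in the arrays labelled CFC1 and 1.42, -0.50, 1.74 and 4.06 in the mock arrays and was not called (-1.84, adjusted p = 0.159 over all probes). Probe A_23_P102331 was even, at -0.30, -0.51, -0.35 and -0.08 in the arrays labelled CFC1 and 1.18, 1.17, 1.15 and 0.98 in the mock arrays, and was called at -1.43. SCN8A (Nav1.6, the channel of nodes of Ranvier) fell by 0.57 (SE 0.058, adjusted p = 6.71e-05), with values of 0.08, 0.12, 0.12 and 0.10 in the arrays labelled CFC1 and 0.83, 0.61, 0.66 and 0.58 in the mock arrays. All 3 of its probes were called lower, between -0.85 and -0.41. The SCN8A call was lost with arrays set to the negative control spots (-0.42, adjusted p = 0.059), and quantile normalization gave -0.24 (adjusted p = 0.00779).

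The other 3 sodium alpha genes overlapped between the groups. SCN11A (Nav1.9) differed by -0.08 (95% interval -0.44 to 0.28). SCN10A (Nav1.8) differed by 0.37 (-0.61 to 1.35), with -0.26, 1.58, -0.26 and -0.03 in the arrays labelled CFC1 and -0.21, -0.24, -0.22 and 0.21 in the mock arrays, so that CFC1 replicate 2 alone stood high. SCN4A (Nav1.4) differed by 0.80 (-0.76 to 2.36), with -0.09, 0.78, 0.47 and -1.64 in the arrays labelled CFC1 and -0.85, 0.42, -1.86 and -1.38 in the mock arrays. Without CFC1 replicate 2, SCN10A differed by -0.07 (adjusted p = 0.692), and its probe lay within 0.15 of the negative control spots on 7 of 8 arrays, so its interval is set by that array. The interval of SCN4A reached beyond 1 log2 unit.

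The auxiliary beta subunits, single-span membrane proteins that modulate gating and bind cell adhesion molecules, were higher for 2 of 3 genes and lower for none. Of all genes tested, 29.7% were higher and 57.9% called. SCN3B stood at 1.46, 1.51, 1.52 and 1.60 in the arrays labelled CFC1, against 0.01, 0.03, 0.02 and 0.00 in the mock arrays, a difference of 1.51 (SE 0.0372, adjusted p = 2.86e-08). The arrays of each group lay within 0.14 of each other. SCN4B (a beta subunit linked to the alpha subunit by a disulphide bond and known for resurgent sodium current) stood at 0.21, -0.29, 0.39 and -0.50 in the arrays labelled CFC1, against -2.21, -2.31, -2.41 and -1.92 in the mock arrays, a difference of 2.17 (SE 0.216, adjusted p = 5.75e-05). For SCN3B the mock arrays lay at the baseline, and for SCN4B the arrays labelled CFC1 did. SCN2B did not pass (0.17, 95% interval -0.50 to 0.83), and its probes had opposite signs: A_32_P187571 read -0.26, 2.24, -0.39 and -0.18 in the arrays labelled CFC1 and -0.20, -0.27, -0.36 and 0.10 in the mock arrays, and A_33_P3394699 differed by -0.20. SCN2B is the only member whose probes disagreed in direction among the 14 with several probes.

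**Figure D2:**
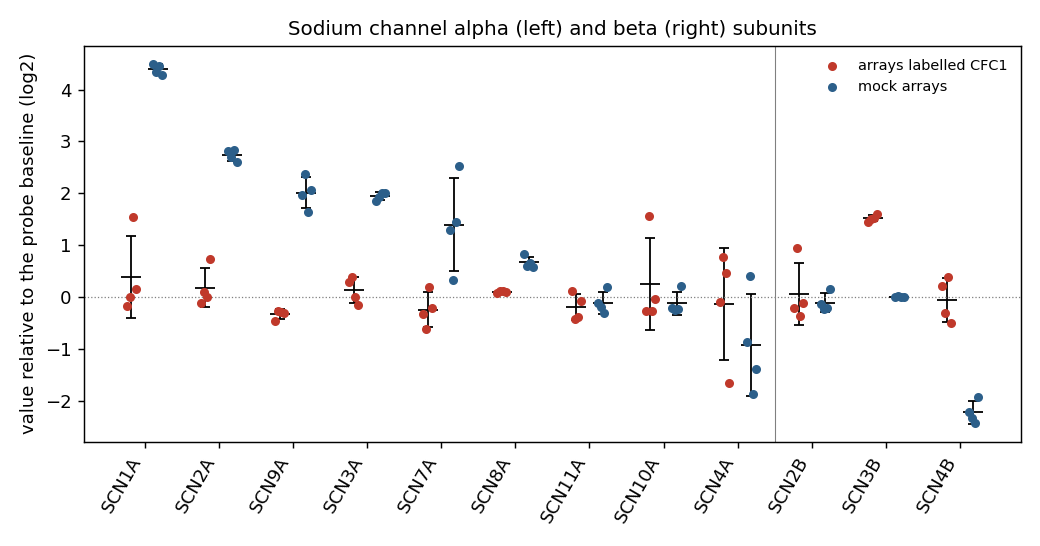
Values of the 9 sodium channel alpha genes and 3 beta genes on each array (log2, relative to the unstated probe baseline, marked by the dotted line at 0). Red points are the 4 arrays labelled CFC1, blue points the 4 mock arrays, and black bars the mean ± SD. From SCN1A to SCN8A all red points lie below all blue points, and for SCN3B and SCN4B all red points lie above.

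The 5 sodium channel genes on chromosome 2 fell together, and 25 other measured genes lie among them or within 10 genes on either side. Those 25 had a median difference of -0.17, with 10 lower, 3 higher and a range of -2.39 to 0.58. SCN1A (-4.004) and SCN2A (-2.56) lay below that whole range, and SCN9A (-2.34), SCN3A (-1.81) and SCN7A (-1.64) within it. SCN2B and SCN4B are also neighbours, on chromosome 11, where 20 genes around them had a median of 0.16 and only SCN4B of the pair was called.

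The sequence just before the start of 3 of these genes that fell, and of SCN4B, which rose, is shown to set neighbours that moved together beside a subunit that did not. Each run is the 250 bases before an annotated start (RefSeq, GRCh38.p14), written along the gene's own strand, with every CG dinucleotide in capitals. A window was given for 26 of the 38 members, and where a gene had several the earliest listed was taken. The windows are chr2:166128021-166128270, minus strand, for SCN1A; chr2:165239164-165239413, plus strand, for SCN2A; chr2:166375945-166376194, minus strand, for SCN9A; and chr11:118145434-118145683, minus strand, for SCN4B.
SCN1A: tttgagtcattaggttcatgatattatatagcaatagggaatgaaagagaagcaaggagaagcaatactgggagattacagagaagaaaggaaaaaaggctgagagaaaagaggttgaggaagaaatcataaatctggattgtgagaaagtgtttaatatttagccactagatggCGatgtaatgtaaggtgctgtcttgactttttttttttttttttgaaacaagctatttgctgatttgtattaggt
SCN2A: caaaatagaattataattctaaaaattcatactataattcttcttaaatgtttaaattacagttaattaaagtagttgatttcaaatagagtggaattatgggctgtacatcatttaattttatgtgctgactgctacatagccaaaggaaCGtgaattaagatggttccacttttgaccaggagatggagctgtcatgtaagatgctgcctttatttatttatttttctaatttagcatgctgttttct
SCN9A: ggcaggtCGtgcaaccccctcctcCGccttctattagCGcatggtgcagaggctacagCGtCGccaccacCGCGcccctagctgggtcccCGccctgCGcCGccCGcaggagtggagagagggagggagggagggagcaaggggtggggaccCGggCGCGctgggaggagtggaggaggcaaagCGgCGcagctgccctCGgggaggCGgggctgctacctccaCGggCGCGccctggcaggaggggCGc
SCN4B: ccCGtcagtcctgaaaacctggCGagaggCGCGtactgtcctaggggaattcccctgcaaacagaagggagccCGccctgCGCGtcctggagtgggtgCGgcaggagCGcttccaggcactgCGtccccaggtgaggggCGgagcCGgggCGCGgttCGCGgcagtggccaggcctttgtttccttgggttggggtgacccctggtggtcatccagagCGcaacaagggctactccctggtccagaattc

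The windows of these genes differed in base composition. SCN1A and SCN2A each held 1 CG dinucleotide, with 33.6% and 29.2% G and C, while SCN9A held 22 with 74%, and SCN4B 17 with 66%. The median over 27305 windows, 1 for each gene, was 11 CG dinucleotides and 58% G and C. Genes with CG-poor and CG-rich windows therefore fell side by side. Across the members, the 16 that fell and had a window held a median of 21.5 CG dinucleotides, and the 9 that did not pass held a median of 7. Base composition was not tested against the differences. Every placement of 40 bases in the windows of SCN1A and SCN2A was compared without gaps, and no other pair of windows was compared. The best match, starting 91 and 77 bases before the start, had 31 identical bases:
SCN1A: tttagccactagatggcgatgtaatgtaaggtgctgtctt
SCN2A: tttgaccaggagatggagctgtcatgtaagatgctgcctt

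Several neuronal sodium channel genes are known targets of REST, a repressor of neuronal genes that binds the RE1 element. The letters TTCAGCACC, a left part of RE1, were in the window of CACNG3 alone among the 26 on either strand, and in 0.3% of all windows, and GGACAGCGC, a right part, was in 0 of the 26 and in 0.469% of all. The GC box letters GGGCGG were in 16 of 26 member windows and 42.3% of all, and overlap the CG dinucleotides counted above. TATAAA was in the window of SCN10A alone and in 11.1% of all. A match is a description of letters in these windows and says nothing of binding there or elsewhere.

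Among the pore-forming calcium channel subunits, 6 of 10 fell, 1 rose and 3 did not pass. The share called was 70%, beside 57.9% of all genes (28.2% lower, 29.7% higher). The falls took in high-voltage-activated channels of the L type (CACNA1C, CACNA1D, CACNA1F), the P/Q type (CACNA1A) and the N type (CACNA1B). The low-voltage-activated T-type channels were split, with CACNA1H higher, CACNA1G lower and CACNA1I not called.

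CACNA1A (Cav2.1, the P/Q-type channel that triggers transmitter release at many synapses) had the largest fall of the calcium channel genes. It stood at 0.46, -0.81, 0.00 and -0.49 in the arrays labelled CFC1, against 2.58, 2.90, 2.99 and 3.05 in the mock arrays. The difference was -3.09 (SE 0.273, adjusted p = 2.88e-05), an interval of -3.73 to -2.45. The groups did not overlap, although the arrays labelled CFC1 were scattered over more than 1 log2 unit. CACNA1B (Cav2.2, the N-type channel of sympathetic nerve endings) fell less, by 0.82 (SE 0.174, adjusted p = 0.0042), with -0.08, 0.42, 0.14 and -0.30 in the arrays labelled CFC1 and 0.64, 1.02, 1.08 and 0.71 in the mock arrays. Of its 5 probes, 3 were called lower and the differences ran from -1.06 to -0.59. The CACNA1B call was lost after quantile normalization (-0.53, adjusted p = 0.0917) and with arrays set to the negative control spots (-0.67, adjusted p = 0.0811). CACNA1E (Cav2.3, the R-type channel) did not pass, with -0.17, -0.31, -0.31 and -0.03 in the arrays labelled CFC1 and -0.08, -0.17, -0.21 and 0.24 in the mock arrays, a difference of -0.15 (95% interval -0.42 to 0.12).

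The L-type channels, which couple depolarisation to gene regulation and pacemaking, were lower in 3 of 4 genes, by differences between -2.14 and -1.33. CACNA1D (Cav1.3, the pacemaking L-type channel of chromaffin cells) stood at 0.05, -0.46, -0.30 and -0.41 in the arrays labelled CFC1, against 1.97, 1.86, 2.17 and 1.43 in the mock arrays, a difference of -2.14 (SE 0.178, adjusted p = 2e-05). CACNA1F (Cav1.4, known from photoreceptors) stood at 0.33, 0.14, -0.51 and 0.09 in the arrays labelled CFC1, against 2.83, 2.04, 1.74 and 1.85 in the mock arrays, a difference of -2.10 (SE 0.28, adjusted p = 0.00032). In neither gene did the groups overlap. CACNA1C (Cav1.2, the L-type channel of heart, smooth muscle and neurons) differed by -1.33 (SE 0.0809, adjusted p = 3.33e-06), with 0.12, -0.12, 0.13 and 0.01 in the arrays labelled CFC1 and 1.51, 1.43, 1.28 and 1.25 in the mock arrays. All 4 of its probes were called lower, but they ran from -2.45 to -0.82. The steadiest of them, A_33_P3825869, read 0.08, 0.00, 0.07 and 0.14 in the arrays labelled CFC1 and 2.48, 2.55, 2.57 and 2.50 in the mock arrays. CACNA1S (Cav1.1, the channel of skeletal muscle) gave -1.03, 0.24, -0.66 and -1.28 in the arrays labelled CFC1 and -0.63, 0.61, -1.55 and -1.18 in the mock arrays, a difference of 0.01 with a wide interval of -1.23 to 1.24. In CACNA1S and in SCN4A, the other skeletal muscle channel, replicate 2 was the highest array of both groups.

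CACNA1H (Cav3.2, a T-type channel that opens near the resting potential) had the largest rise of the 38 genes and the smallest adjusted p. It stood at 3.35, 3.30, 3.29 and 3.32 in the arrays labelled CFC1, against 0.03, 0.01, 0.08 and 0.00 in the mock arrays. The difference was 3.29 (SE 0.0331, adjusted p = 8.22e-10), an interval of 3.21 to 3.36, and the arrays of each group lay within 0.08 of each other. CACNA1G (Cav3.1) went the opposite way, with -0.60, -0.78, -0.79 and -0.58 in the arrays labelled CFC1, against 0.45, 0.38, 0.38 and 0.61 in the mock arrays, a difference of -1.14 (SE 0.0751, adjusted p = 5.23e-06). This mean joins unlike probes. A_23_P107247 differed by -2.14, with -1.07, -1.20, -1.26 and -1.14 in the arrays labelled CFC1 and 0.96, 0.91, 1.02 and 0.97 in the mock arrays, while A_33_P3261418 differed by -0.15 (adjusted p = 0.397 over all probes). The second of these probes read within 0.15 of the negative control spots on all 8 arrays. CACNA1I (Cav3.3) did not pass (-0.09, 95% interval -0.49 to 0.30).

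**Figure D3:**
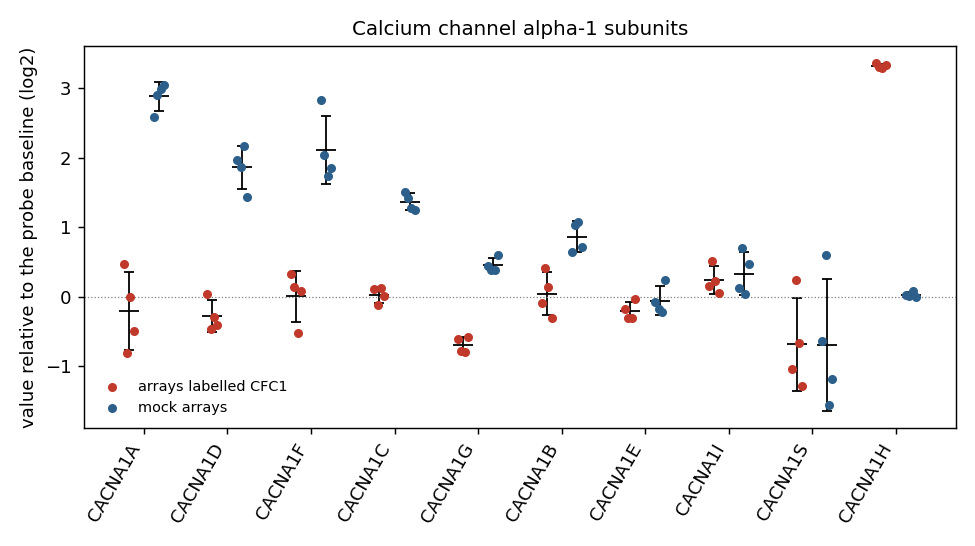
Values of the 10 calcium channel alpha-1 genes on each array (log2, relative to the unstated probe baseline at the dotted line). Red points are the 4 arrays labelled CFC1, blue points the 4 mock arrays, and black bars the mean ± SD. CACNA1H alone has all red points above all blue points, near 3.3, and in CACNA1A, CACNA1D, CACNA1F, CACNA1C, CACNA1G and CACNA1B all red points lie below.

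Of the alpha-2-delta subunits, extracellular proteins that bring alpha-1 subunits to the membrane, 2 of 4 fell and none rose. Called members made up 50%, beside 57.9% of all genes (28.2% lower). CACNA2D2 stood at 0.00, 0.06, 0.09 and 0.11 in the arrays labelled CFC1, against 2.21, 2.19, 2.24 and 2.27 in the mock arrays, a difference of -2.16 (SE 0.0377, adjusted p = 5.7e-09). It had the tightest groups of any member that fell by over 1 log2 unit, with SDs of 0.0494 in the arrays labelled CFC1 and 0.0344 in the mock arrays. CACNA2D3 differed by -1.07 (SE 0.224, adjusted p = 0.00385), with 0.21, -0.09, 0.87 and 0.49 in the arrays labelled CFC1 and 1.30, 1.22, 1.42 and 1.82 in the mock arrays, and quantile normalization ended its call (-0.51, adjusted p = 0.169). CACNA2D1, a target of the drug gabapentin, did not pass at 0.06 (95% interval -0.01 to 0.13). It was called higher after quantile normalization (0.25, adjusted p = 0.012), with unmoderated variances (adjusted p = 0.031) and after scaling on the E1A spots (0.13, adjusted p = 0.0337). CACNA2D4 split the arrays labelled CFC1, at 1.73, 1.51, -0.64 and -0.30, against -0.40, 0.69, -0.39 and 0.32 in the mock arrays, and did not pass (0.52, -0.90 to 1.95).

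Of the cytoplasmic beta subunits, which bind the alpha-1 subunit and aid its export to the membrane, 3 of 4 fell and none rose, by less than the largest falls above. Called members made up 75%, beside 57.9% of all genes (28.2% lower). CACNB2 differed by -1.01 (SE 0.26, adjusted p = 0.011), with -0.29, -0.36, -0.27 and -0.10 in the arrays labelled CFC1 and 0.51, 0.52, 0.40 and 1.59 in the mock arrays. The high value of mock replicate 4 came from probe A_33_P3285275, which read -0.14, -0.38, -0.30 and -0.04 in the arrays labelled CFC1 and -0.05, -0.16, -0.26 and 3.15 in the mock arrays. The other probes of CACNB2 were both called lower, at -0.97 and -1.18, and without mock replicate 4 the gene differed by -0.73 (adjusted p = 0.000154). CACNB1 (the beta subunit of the skeletal muscle channel, also present in other tissues) fell by 0.65 (SE 0.0846, adjusted p = 0.000275), with -0.76, -0.55, -0.75 and -0.89 in the arrays labelled CFC1 and -0.17, 0.00, -0.19 and 0.01 in the mock arrays. CACNB4 fell by 0.56 (SE 0.112, adjusted p = 0.00321), with 0.00, 0.28, 0.29 and 0.45 in the arrays labelled CFC1 and 0.82, 0.82, 0.62 and 0.98 in the mock arrays, and after quantile normalization stood at -0.11 (adjusted p = 0.59). CACNB3 did not pass (0.07, 95% interval -0.05 to 0.18), and was called higher after scaling on the E1A spots (0.14, adjusted p = 0.0319).

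Of the 8 gamma genes, 2 fell, 1 rose and 5 did not pass. The share called was 37.5%, below the 57.9% of all genes. CACNG6, a relative of the skeletal muscle gamma subunit, stood at -0.74, 0.07, -1.43 and -0.74 in the arrays labelled CFC1, against 0.57, 1.19, 1.17 and 1.07 in the mock arrays, a difference of -1.71 (SE 0.311, adjusted p = 0.00184). The others of the family are known chiefly as TARPs, which traffic AMPA-type glutamate receptors, apart from CACNG1 of skeletal muscle. CACNG4 fell by 0.46 (SE 0.072, adjusted p = 0.000788), a call lost after quantile normalization (-0.14, adjusted p = 0.232) and with arrays set to the negative control spots (-0.32, adjusted p = 0.14). CACNG7 rose by 0.60 (SE 0.0838, adjusted p = 0.000418), with 0.77, 0.77, 0.58 and 0.70 in the arrays labelled CFC1 and -0.05, 0.26, 0.01 and 0.20 in the mock arrays. Only probe A_24_P365349 of its pair was called (0.98), and the other, A_23_P4782, differed by 0.22 (adjusted p = 0.455 over all probes). After quantile normalization CACNG7 differed by 0.99.

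The 5 gamma genes that did not pass were scattered. CACNG5 ranged from -1.03 to 2.92 in the arrays labelled CFC1 and from -1.10 to 2.16 in the mock arrays, with a difference of 1.24 (-1.17 to 3.65). For CACNG2 (stargazin) the difference was 0.39 (-0.38 to 1.15), with CFC1 replicate 2 at 1.19 and the other 3 of that group between -0.24 and 0.34. CACNG1 (0.27, -0.37 to 0.91), CACNG3 (-0.14, -0.54 to 0.26) and CACNG8 (0.01, -0.62 to 0.63) had intervals that held 0 and reached beyond 0.5 on at least 1 side. CACNG6, CACNG7 and CACNG8 lie next to each other on chromosome 19 and did not move as a block, with differences of -1.71, 0.60 and 0.01 beside a median of 0.43 for 20 genes around them.

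**Figure D4:**
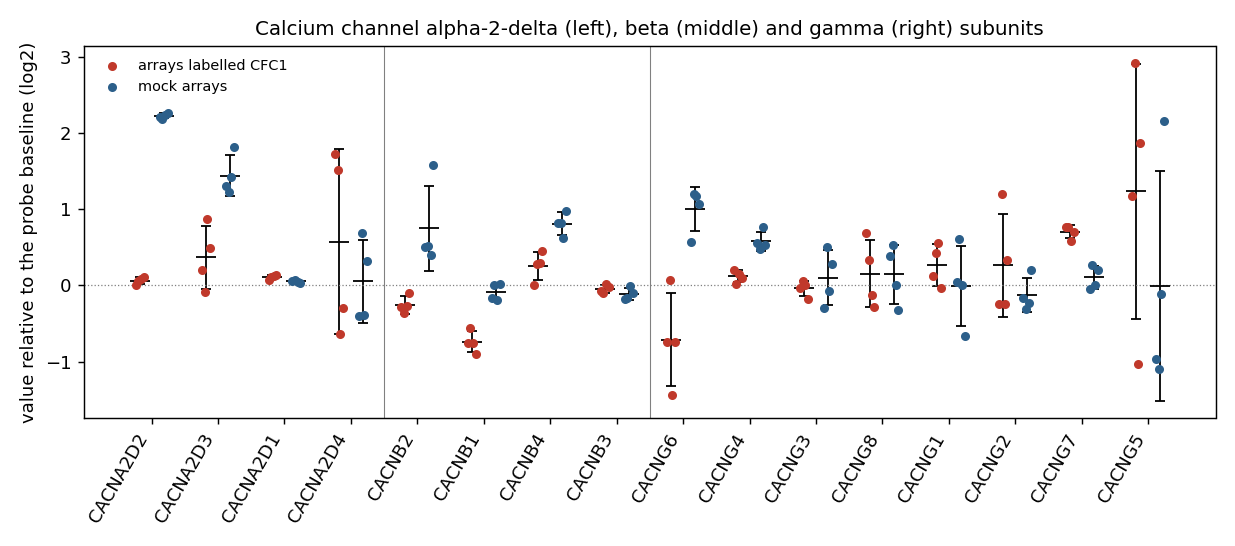
Values of the alpha-2-delta, beta and gamma genes of calcium channels on each array (log2, relative to the unstated probe baseline at the dotted line). Red points are the 4 arrays labelled CFC1, blue points the 4 mock arrays, and black bars the mean ± SD. CACNA2D2 shows the widest gap between tight groups, with red points from 0.00 to 0.11 and blue points from 2.19 to 2.27, and CACNG5 spreads widely in both groups.

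Negative control spots, which match no transcript, moved from array to array in a pattern of their own: -0.18, -0.39, -0.28 and -0.02 in the arrays labelled CFC1, and -0.11, -0.21, -0.21 and 0.24 in the mock arrays. Where a probe follows this pattern, its change from array to array is no more than that of these spots. Such a match cannot show that the probe lies at background, since the values hold no level. Over all probes 42.1% were called in the fit of single probes, 22.1% lower and 20% higher. Among the 59 channel probes, several of which share a gene, 30 were called lower, 4 higher and 25 not. Of the 59, 8 (13.6%) lay within 0.15 of the negative control on at least 6 of the 8 arrays, beside 22.5% of all probes. They were the single probes of CACNA1E, SCN10A, SCN11A and CACNG2, both probes of SCN2B, and 1 probe each of CACNA1G and CACNB2. Those of CACNA1E and CACNA1G did so on all 8. Single high arrays stood out among the other 6, CFC1 replicate 2 for SCN10A (1.58), CACNG2 (1.19) and a probe of SCN2B (2.24), and mock replicate 4 for a probe of CACNB2 (3.15). For 2 called probes, A_23_P102331 of SCN7A and A_33_P3249394 of CACNA1C, the 4 arrays labelled CFC1 followed the negative control and the 4 mock arrays did not. For the called probes A_33_P3285277 and A_33_P3363271 of CACNB2, 3 arrays labelled CFC1 and 0 mock arrays did so. The table carries no background flags, so how near background the lower group of any gene lay is unknown. Each difference here is as fitted, without a bound.

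**Figure D5:**
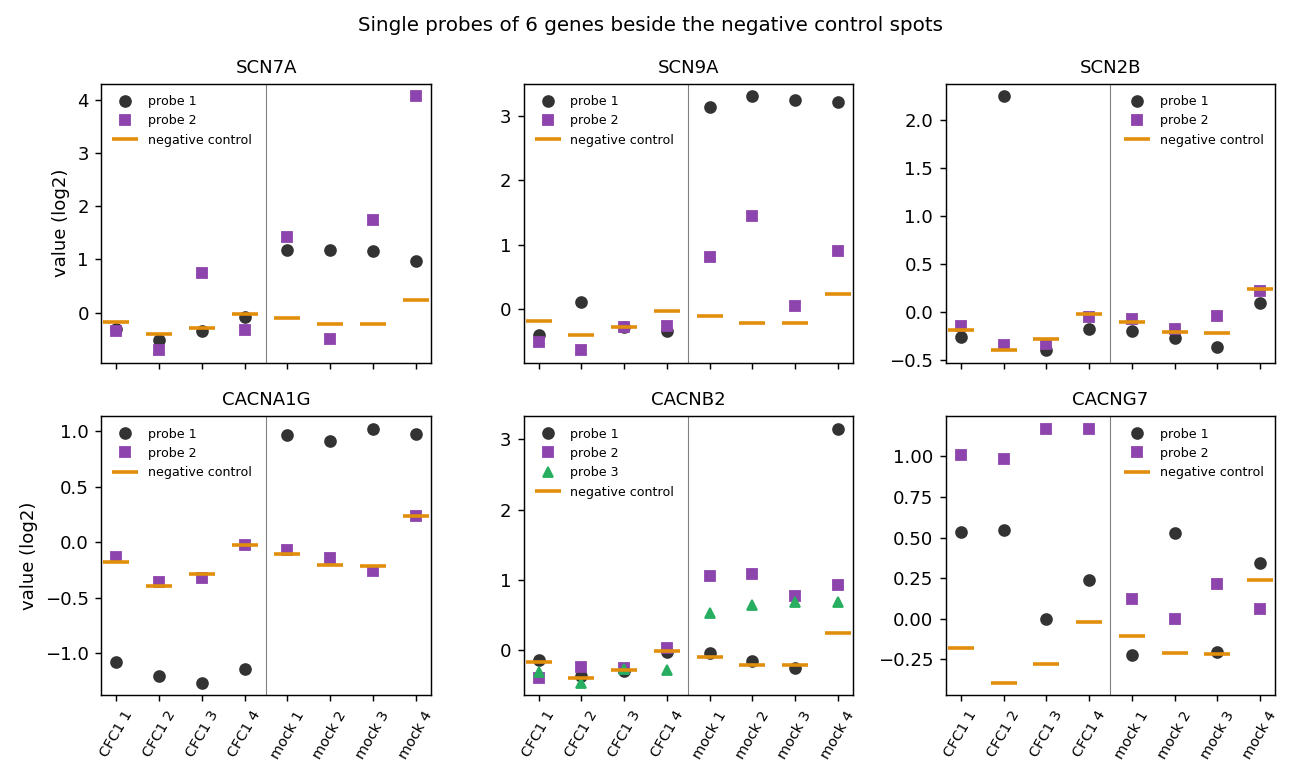
Values of single probes on each array (log2, 4 arrays labelled CFC1 left of the line and 4 mock arrays right of it) for 6 genes whose probes were unlike, with the negative control spots as orange dashes. Probe 2 of CACNA1G follows the negative control on all 8 arrays while probe 1 lies near -1 in the arrays labelled CFC1 and near 1 in the mock arrays, and single high arrays stand out for SCN2B and CACNB2.

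The members' differences were set beside those of their chromosomal neighbours, since neighbouring genes share copy number. Of 38 members, 11 lay outside the whole range of the measured genes, other channels left out, among the 10 on each side. They were SCN1A, SCN2A, SCN3A, CACNA1A, CACNA1C, CACNA1D, CACNA1F, CACNA1G, CACNA2D3 and CACNG6, all below, and SCN3B, above. SCN3A (-1.81) lay below its own 16 measured neighbours (lowest -1.445), though within the range of the 25 genes around the whole chromosome 2 group. Of the 19 that fell, 11 had neighbours with a median above 0. CACNA2D2 (-2.16), CACNA1D (-2.14) and CACNA2D3 (-1.07), all on chromosome 3, lay among genes with medians of 0.96, 0.82 and 0.71, and CACNA1D and CACNA2D3 share some of these neighbours. CACNB1 (-0.65) was close to its neighbours on chromosome 17, which had a median of -0.56 with 15 of 20 lower. Around CACNA1H, 12 of 20 neighbours were higher and none was lower, with a median of 0.51 and a highest value of 3.60, so CACNA1H lay within their range. Over all genes tested 28.2% were lower and 29.7% higher. The share of all genes that lie outside the range of their neighbours was not computed, so the 11 of 38 has no background beside it. The same holds for the 11 of 19 with a neighbour median above 0. The part of copy number in any of these differences was not tested.

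Transcripts of genes listed as partners of the sodium channels moved in both directions. Of 14 partners measured, 5 rose and 9 fell, and the median was -1.11. Of all genes tested 29.7% rose and 28.2% fell, and neither this list nor those below were tested against these shares. The intracellular fibroblast growth factors, which bind the tail of sodium channels, were split: FGF12 rose by 4.34, with 4.21, 4.16, 4.19 and 4.24 in the arrays labelled CFC1 and -0.25, -0.29, -0.46 and 0.46 in the mock arrays, FGF11 by 2.05 and FGF13 by 1.99, while FGF14 fell by 2.67. CNTN1, an adhesion molecule that raises sodium channel density at the surface, fell by 3.81, and PRRT2, a presynaptic protein that restrains sodium channels, rose by 2.34. Of the 20 measured calcium channel partners, 4 rose, 10 fell and 6 did not pass (median -0.18). The active zone proteins RIMS1 and RIMBP2, which hold calcium channels at release sites, fell by 2.51 and 1.93. The STAC adaptors of L-type channels were split, with STAC2 higher by 2.41 and STAC lower at -2.34. FGF11 and FGF13 were named after their values were seen.

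Of 11 related cation channels and their subunits, 2 rose, 5 fell and 4 did not pass (median -0.46). NALCN, the sodium leak channel, did not pass at -0.46, and its subunits were split: NALF1, UNC79 and UNC80 fell by 3.34, 2.34 and 1.59, while NALF2, named after its value was seen, rose by 0.45. CATSPER1, known from sperm, rose by 2.21. Of 9 genes of REST and its corepressors, 3 rose, 4 fell and 2 did not pass (median 0.06). REST itself rose by 0.50, from a single probe that averaged -0.05 in the arrays labelled CFC1 and -0.55 in the mock arrays. RCOR2 and HDAC2 rose by 0.42 and 0.44, and SIN3B fell by 0.41. Of 7 called genes in this list, none differed by 1 log2 unit, and its count of falls was 2 after quantile normalization, 2 with centred arrays, 2 after scaling on the E1A spots and 0 with arrays set to the negative control spots.

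Genes of calcium handling downstream of the channels also moved both ways, as did all genes tested (29.7% higher, 28.2% lower). Of 21 pumps, exchangers and store channels, 10 rose, 10 fell and 1 did not pass (median -0.06). SLC8A3, a sodium-calcium exchanger, fell by 4.13, and ORAI1, the pore of store-operated entry, by 2.04, while the calcium pumps ATP2A3 and ATP2A1 rose by 1.93 and 1.81. Their relatives, named after their values were seen, did not all move alike: ORAI2 rose by 1.30 and ORAI3 fell by 0.95, and the pump ATP2B2 fell by 1.55. ATP2A2 fell by 0.20, a call lost after quantile normalization (adjusted p = 0.818), with centred arrays (adjusted p = 0.106) and with arrays set to the negative control spots (adjusted p = 0.813). Of 16 genes of calcium-dependent signalling, 6 rose, 7 fell and 3 did not pass (median 0.04). The kinases CAMK4 and CAMKK2 fell by 2.99 and 2.48, the calcineurin subunit PPP3CC rose by 1.49, and NFATC1, a transcription factor that calcineurin activates, fell by 1.49. Relatives named after their values were seen went both ways: CAMKK1 rose by 0.50 and NFATC2 by 1.07, and NFATC4 fell by 1.42.

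Markers of cell types that use these channels were set beside them. Their counts were not tested against the shares of all genes, 29.7% higher and 28.2% lower. Of 9 sympathoadrenal markers, 6 fell, 1 rose and 2 did not pass (median -0.41). CHGB and CHGA, proteins of secretory granules, fell by 2.48 and 1.14. ISL1, a transcription factor, fell by 2.18, and DBH, which makes noradrenaline, fell by 0.62. HAND2 and GATA3, transcription factors of the lineage, fell by 0.41 and 0.35, PHOX2A and TH did not pass at 0.02 and 0.07, and MYCN rose by 0.16. The HAND2 call was lost after quantile normalization (-0.13, adjusted p = 0.125), which left 5 sympathoadrenal markers lower. MYCN was no longer called after quantile normalization (adjusted p = 0.0642), with centred arrays (adjusted p = 0.0982) and with arrays set to the negative control spots (adjusted p = 0.114). HAND2, GATA3, PHOX2A, TH and MYCN were named after their values were seen. Of 7 skeletal muscle markers, 2 rose (CKM by 2.66, ACTA1 by 0.24), 2 fell (DES by 0.49, MYH3 by 0.34) and 3 did not pass. Both falls were lost after quantile normalization (adjusted p = 0.0648 for DES and 0.565 for MYH3) and with arrays set to the negative control spots (0.210 for DES and 0.460 for MYH3), and that of MYH3 also with centred arrays (0.0742). Of 5 cardiac muscle markers, TNNT2 and NPPA fell by 1.61 and 1.45 and NKX2-5 rose by 0.17. NKX2-5 was no longer called when mock replicate 3 (adjusted p = 0.053), CFC1 replicate 1 (0.0687) or CFC1 replicate 2 (0.0553) was left out. It was also lost with a replicate block (adjusted p = 0.0740), with centred arrays (0.0505), in the fit over all probes (0.0513) and with arrays set to the negative control spots (0.0906). Of 4 Schwann and glial markers, 2 fell (S100B by 1.35, SOX10 by 0.88), and of 6 fibroblast and mural markers, 5 fell, among them PDGFRA by 2.78, COL1A1 by 1.44, DCN by 1.13 and PDGFRB by 0.46. With arrays set to the negative control spots, 3 of these fibroblast and mural markers were lower. Since the values hold no level, whether any marker is present at all cannot be read from them, and the part of other cell types in the channel differences was not tested.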

How the data were processed

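Total RNA of 8 samples, 4 labelled CFC1 and 4 mock, was labelled with Cyanine3 and hybridised in a single colour, per the labels. The deposited table holds log2 values for 50739 rows. Log base, feature extraction, scaling and baseline were not given in the sources used here. Base 2 was assumed. In 0 rows were all 8 arrays above 0, and in 0 all below, and array medians ran from -0.145 to 0.139. After 140 control spots were left out, 31993 of 50599 probes had a gene symbol in the platform annotation, updated through accession, symbol or synonym with the RefSeq gene table of GRCh38.p14, which changed no channel gene's symbol. Probes of a gene were averaged.

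All 21524 genes were fitted in R 4.3.3 by limma 3.58.1 (its lmFit and eBayes functions, with neither trend nor block), two-sided, with Benjamini-Hochberg adjustment and a threshold of 0.05. Single-probe p-values came from a fit over all 50599 probes, of which 22.1% were lower, 20% higher and 42.1% called. The code of the fit was tested on simulated data with independent errors and few changed genes, unlike the data here. That test does not show how many real differences were missed. All members are named, the partner and marker lists by their 4 largest called differences. Members and lists were chosen with earlier results of these data known. Same-numbered samples correlated in their deviations from the group means by 0.0741 to 0.199, and each sample labelled CFC1 correlated best with its own number. The labels name no pairs, so the main fit had none. The alternatives tried were a replicate block, scalings, variance settings, probe summaries, platform symbols and leaving out each array. In the alternative that used the fit over all probes, each gene was taken from its probe with the smallest p. That choice favours keeping a call for genes with several probes. Python 3.11.15 was used for summaries and figures.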

Additional observations from a re-analysis of the deposited data

Results flagged for a closer look

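In 3 of 78 groups of 4 arrays (38 channel genes and CFC1, each in both groups), 1 array stood far from the other 3, its gap to the nearest taking up nearly the whole range of the group. Chance alone gives about 1 in 20 such groups. CACNB2 stood at 1.586 in mock replicate 4, with the others of that group between 0.40 and 0.518. SCN10A stood at 1.576 in CFC1 replicate 2, with the others between -0.261 and -0.03. SCN10A also stood at 0.213 in mock replicate 4, with the others between -0.239 and -0.207, and the negative control spots of that array were at 0.24 beside -0.21 to -0.11 on the other mock arrays.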

How the results depend on the processing

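Of the 23 called members, 18 kept their direction and call under all 18 alternatives that can alter a value, and 5 lost the call in at least 1 (CACNA1B, CACNA2D3, CACNB4, CACNG4, SCN8A), all under quantile normalization or with arrays set to the negative control spots. Of the 15 not called, 3 were called under some alternative, always in the direction of the difference reported above: CACNA2D1, CACNB3, and CACNA1E (-0.15), where a replicate block gave an adjusted p of 0.043. The only CACNA1E probe lay within 0.15 of the negative control spots on all 8 arrays, and those spots averaged -0.218 in the arrays labelled CFC1 and -0.0717 in the mock arrays, so that call is no more than the spots themselves show. The count of members higher ran from 4 to 6 and of members lower from 15 to 20 over all settings. With the replicate block it was 4 and 20, and the block lost no call of a member; every sample labelled CFC1 correlated best with the mock sample of its own number, a hint from the data and not from the design. Leaving out 1 array at a time gave 4 higher and 19 lower each time, and 15 to 17 members at least 2-fold apart, beside 17 with all arrays and 18 if the logarithm were natural. Quantile normalization gave 5 higher, 15 lower and 14 at least 2-fold apart. With arrays set to the negative control spots, chosen after the data were seen like the E1A spots, the median of all genes moved by 0.147 and 4 members were higher and 16 lower; the share of called genes of the whole table that were higher was 62.9%, beside 51.3% without this scaling. Among called genes, directions reversed for JPH1 (0.0225) and RCOR3 (0.0600) after quantile normalization, HDAC1 (0.0134) with arrays set to the negative control spots. RCOR1, not called with all arrays, was called lower without CFC1 replicate 4 (-0.408, adjusted p = 0.000241), an array in which it stood at 1.56 (range -0.408 to 0.284 over arrays left out). Signs of members that were not called also turned, without a call, under at least 1 alternative for CACNA1I (to 0.20 after quantile normalization), CACNA1S (to -0.49 after quantile normalization), SCN10A, SCN2B, SCN11A, CACNG3 and CACNG8. The causes were not tested. No result rests on depth, as the arrays carry no counts, and signal over background is unknown.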
